A study of Mus musculus with 52 samples.

Results

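The 6 genes described here encode the secreted signal Nodal, its coreceptor Cripto (Tdgf1), the antagonists Lefty1 and Lefty2, the inhibitory SMAD protein Smad7 and the corepressor Skil. They were located by annotation among 24263 gene intervals of the mouse genome (build mm10), and every deposited enhancer region centred within 100 kb of one of their transcription start sites (TSSs) was taken. This gave 13 of the 8794 enhancers listed for mouse embryonic stem cells (mESCs) and 35 of the 16576 listed for epiblast-like cells (EpiLCs). The rule used no measured value. The study made 52 libraries of immunoprecipitated or input chromatin, 43 from naive mESCs grown in LIF and 2i (inhibitors of GSK3 and MEK1) and 9 from EpiLCs after 48 h of differentiation, on a C57BL6/129Sv background. The genotypes were the ABE control, mutants of lysine 27 in canonical H3 (cK27R) or in all H3 (pK27R), a SUZ12 knockout, and cells without H3.3 or with H3.3 added back. The 3 deposited tables hold region positions with no value per library, so signal in control or mutant cells, and sequencing depth, were not analysed here. The mESC and EpiLC lists come from separate earlier publications, and the authors transferred their coordinates to mm10, so a difference between cell types and a difference in how each list was made cannot be told apart. The lists have no replicates, and no test was run on them.

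Nodal is a ligand of the TGF-β family that signals through activin receptors together with an EGF-CFC coreceptor such as Cripto. The receptors phosphorylate SMAD2 and SMAD3, which enter the nucleus with SMAD4 and are brought to target genes by DNA-binding partners such as FOXH1. The pathway keeps the epiblast pluripotent and later patterns it, and several of its own components and inhibitors are among its targets, including Nodal itself through a FOXH1-dependent enhancer in its first intron. EpiLCs, derived from naive mESCs in culture, resemble the early post-implantation epiblast, in which this signal is active.

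Sequences from the regions that the results below turn on are shown first, read from the mm10 genome 5′ to 3′ on the strand given. Capitals in the first 4 mark the letters AATCCACA, the core of the FOXH1 motif, or the same letters on the other strand (TGTGGATT). The 2 Lefty windows are shown because each holds 2 such matches close together inside regions of both lists. The 2 Nodal windows are shown because they hold the FOXH1 matches of the first intron, inside a region of the EpiLC list and outside those of the mESC list.
Lefty2 upstream pair, chr1:180888789-180889088, plus strand: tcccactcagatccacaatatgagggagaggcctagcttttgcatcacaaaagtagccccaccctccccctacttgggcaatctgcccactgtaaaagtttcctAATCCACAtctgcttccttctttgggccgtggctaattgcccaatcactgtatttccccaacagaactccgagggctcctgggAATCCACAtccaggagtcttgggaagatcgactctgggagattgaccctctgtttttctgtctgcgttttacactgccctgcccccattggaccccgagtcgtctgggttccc
Lefty1 upstream pair, chr1:180924700-180924999, plus strand: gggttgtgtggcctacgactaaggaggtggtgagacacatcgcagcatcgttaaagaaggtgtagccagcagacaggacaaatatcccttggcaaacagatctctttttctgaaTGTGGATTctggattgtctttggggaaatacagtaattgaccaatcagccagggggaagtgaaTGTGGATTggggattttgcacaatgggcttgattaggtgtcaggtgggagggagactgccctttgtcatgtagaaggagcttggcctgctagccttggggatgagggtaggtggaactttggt
Nodal intron 1, first match, chr10:61419203-61419402, plus strand: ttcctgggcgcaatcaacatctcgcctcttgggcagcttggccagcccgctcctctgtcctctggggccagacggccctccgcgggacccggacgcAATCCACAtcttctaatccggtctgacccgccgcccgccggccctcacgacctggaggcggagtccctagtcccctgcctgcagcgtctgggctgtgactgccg
Nodal intron 1, second match, chr10:61419997-61420196, plus strand: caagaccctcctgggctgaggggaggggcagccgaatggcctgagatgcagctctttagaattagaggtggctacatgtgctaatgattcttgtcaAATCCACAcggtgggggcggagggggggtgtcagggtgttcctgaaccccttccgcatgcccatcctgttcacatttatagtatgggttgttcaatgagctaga
Capitals in the next 2 sequences mark the octamer ATGCAAAT, a motif of POU factors such as OCT4, and the letters TAATCC, a motif of OTX factors. The Tdgf1 window lies where the longest EpiLC region of the 6 genes meets the mESC region upstream of the gene. The Skil window is the central 300 bp of the nearest mESC region.
Tdgf1 upstream, chr9:110947896-110948095, minus strand: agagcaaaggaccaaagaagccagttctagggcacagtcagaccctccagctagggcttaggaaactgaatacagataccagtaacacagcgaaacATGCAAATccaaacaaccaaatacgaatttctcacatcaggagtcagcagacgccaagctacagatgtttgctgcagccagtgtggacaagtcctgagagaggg
Skil upstream, chr3:31089327-31089626, plus strand: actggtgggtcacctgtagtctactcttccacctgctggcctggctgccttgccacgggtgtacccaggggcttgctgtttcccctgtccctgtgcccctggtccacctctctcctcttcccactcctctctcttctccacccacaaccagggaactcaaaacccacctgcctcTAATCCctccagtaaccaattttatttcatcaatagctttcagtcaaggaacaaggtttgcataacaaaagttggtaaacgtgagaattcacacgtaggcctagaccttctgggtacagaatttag

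All 6 genes had both mESC and EpiLC enhancers within 100 kb. Over all gene intervals, 55.3% had at least 1 mESC enhancer and 74.0% at least 1 EpiLC enhancer. The mESC list held 2 enhancers at Nodal, Tdgf1, Lefty1, Lefty2 and Skil and 5 at Smad7. A count of 2 or more mESC enhancers was found at 23.3% of intervals and a count of 5 or more at 0.474%. Within 100 kb the EpiLC list held more regions than the mESC list at every gene. This did not hold in all other windows: Smad7 had 7 mESC and 6 EpiLC regions within 200 kb, and Skil 1 of each within 20 kb. The EpiLC list is the longer of the 2, with a median of 2 regions per interval against 1 in the mESC list. It held 9 enhancers at Nodal and in each Lefty window, 6 at Tdgf1 and at Smad7, and 5 at Skil. All 6 genes thus had at least 5 EpiLC enhancers, a count reached by 16.5% of intervals, while 9 or more were found at 1.9% of intervals and 6 or more at 10.3%. The order of the genes was therefore not the same in the 2 lists. Smad7 had the most mESC regions but fewer EpiLC regions than Nodal and the Lefty genes, which led the EpiLC list with the mESC count of Tdgf1 and Skil. The windows held 1 other TSS (Smad7) to 6 (Tdgf1), against a median of 4 over all intervals.

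**Figure D1:**
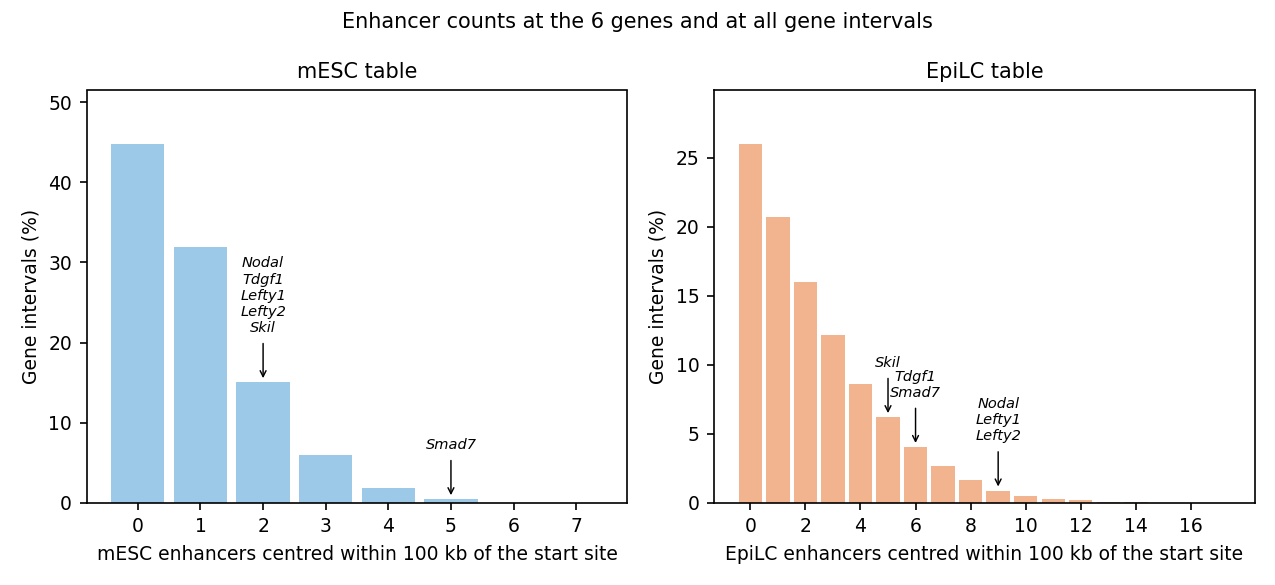
Share of gene intervals (%, y axis) by number of mESC (left) or EpiLC (right) enhancers centred within 100 kb of the TSS (x axis), with arrows at the counts of the 6 genes. Smad7 stands at 5 in the mESC list, and Nodal, Lefty1 and Lefty2 at 9 in the EpiLC list, both in the sparse right end of the distribution.

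Most of the mESC enhancers near these genes had an EpiLC counterpart. Of the 13 mESC regions, 12 (92.3%) overlapped an EpiLC region by at least 1 bp, against 42.9% of the whole mESC list. Every one of the 6 genes had at least 1 such region, as 31.5% of intervals did. The exception was a 714 bp region 82.4 kb downstream of the Smad7 TSS, in an intron of Ctif, which made Smad7 the 1 gene of 6 with an mESC-only enhancer (36.7% of intervals have one). Of the 35 EpiLC regions, 18 (51.4%) overlapped an mESC region, against 25.9% of the whole list, and the other 17 were found in the EpiLC list only. All 6 genes had at least 1 EpiLC-only region, as 68.8% of intervals did. The EpiLC-only regions were uneven: 6 at Nodal, 6 shared by both Lefty windows, 3 at Tdgf1 and 1 each at Smad7 and Skil. As many as 6 were found at 6.07% of intervals and as many as 3 at 28.3%.

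The overlap was counted again by length and under stricter rules. The mESC regions near the 6 genes had a median length of 1047 bp (540 to 17125 bp), against 711 bp over the list, and the EpiLC regions 2525 bp (875 to 18400 bp), against 1750 bp. Among the 7 mESC regions of 1 kb or longer, 7 overlapped an EpiLC region (72.9% over the list), and among the 6 shorter ones 5 did (35.0% over the list). With at least 50% of both regions required, 2 mESC regions (15.4%) still had a partner, against 9.36% of the list, and 2 EpiLC regions (5.71%), against 4.97%. With every region set to 500 bp around its centre, 4 mESC regions (30.8% against 26.1%) and 4 EpiLC regions (11.4% against 14.1%) overlapped. Under both stricter rules the counts were within 1 region of what the list's own share gives, so the higher share near the 6 genes held for regions that touch and not for regions matched in centre or extent. Counted in bases, 36.5 kb were in both lists, which was 58.3% of the 62.6 kb of mESC regions (34.7% over the list) and 24.1% of the 151 kb of EpiLC regions (13.8% over the list).

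**Figure D2:**
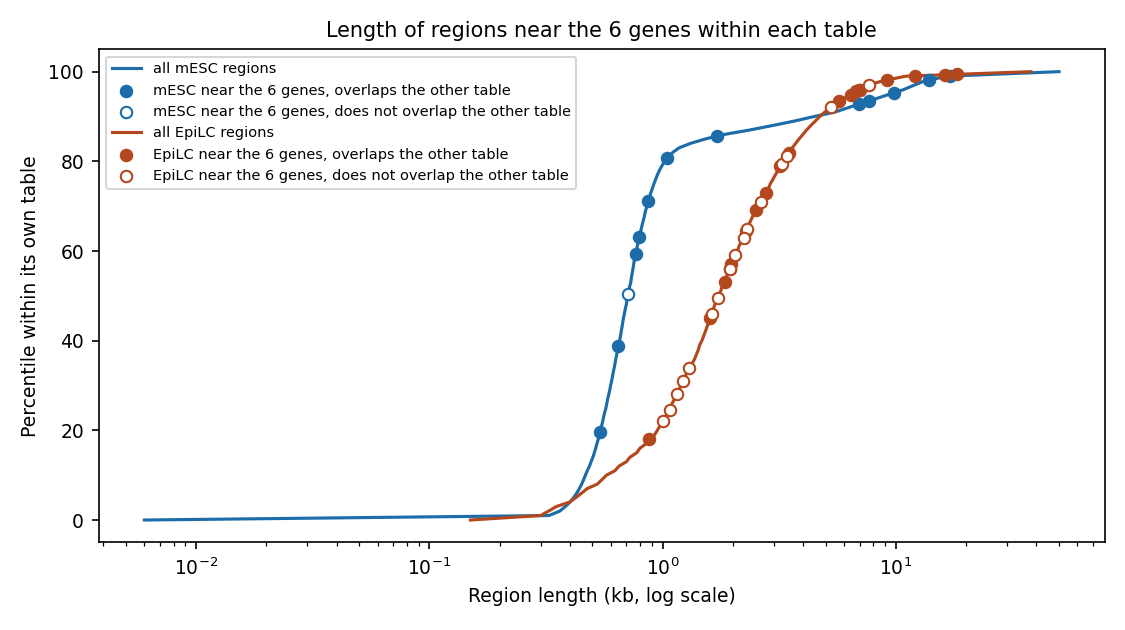
Length of each region near the 6 genes (x axis, kb, log scale) against its percentile within its own list (y axis), with lines for all mESC (blue) and all EpiLC (red) regions and filled points for regions that overlap the other list. The 1 open blue point is the Smad7 mESC-only region of 714 bp, and the 3 EpiLC regions over 10 kb lie at the top right, all filled.

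The TSS itself was covered in the EpiLC list at all 6 genes. A TSS lay inside an EpiLC region at 14.0% of intervals and inside an mESC region at 1.16%, the latter here at Smad7 only. The covering EpiLC regions measured 7000 bp at Nodal, 18400 bp at Tdgf1, 6775 bp at Lefty1, 12100 bp at Lefty2, 3475 bp at Smad7 and 16350 bp at Skil. Their median of 9550 bp compares with 2400 bp for the 2870 EpiLC regions that cover any TSS. Regions over 10 kb make up 1.38% of the EpiLC list, and 3 of those near the 6 genes exceeded that length, each over a TSS (Tdgf1, Lefty2 and Skil). In the mESC list the nearest region instead stopped short of the TSS at 5 genes and always on its upstream side. Its edge lay 718 bp away at Nodal, 761 bp at Tdgf1, 846 bp at Lefty1, 3685 bp at Lefty2 and 5199 bp at Skil. Within 20 kb of the TSS each gene had exactly 1 mESC region, and all 6 of these overlapped an EpiLC region. The share of all intervals with such a region within 20 kb was not taken, so these counts have no background.

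**Figure D3:**
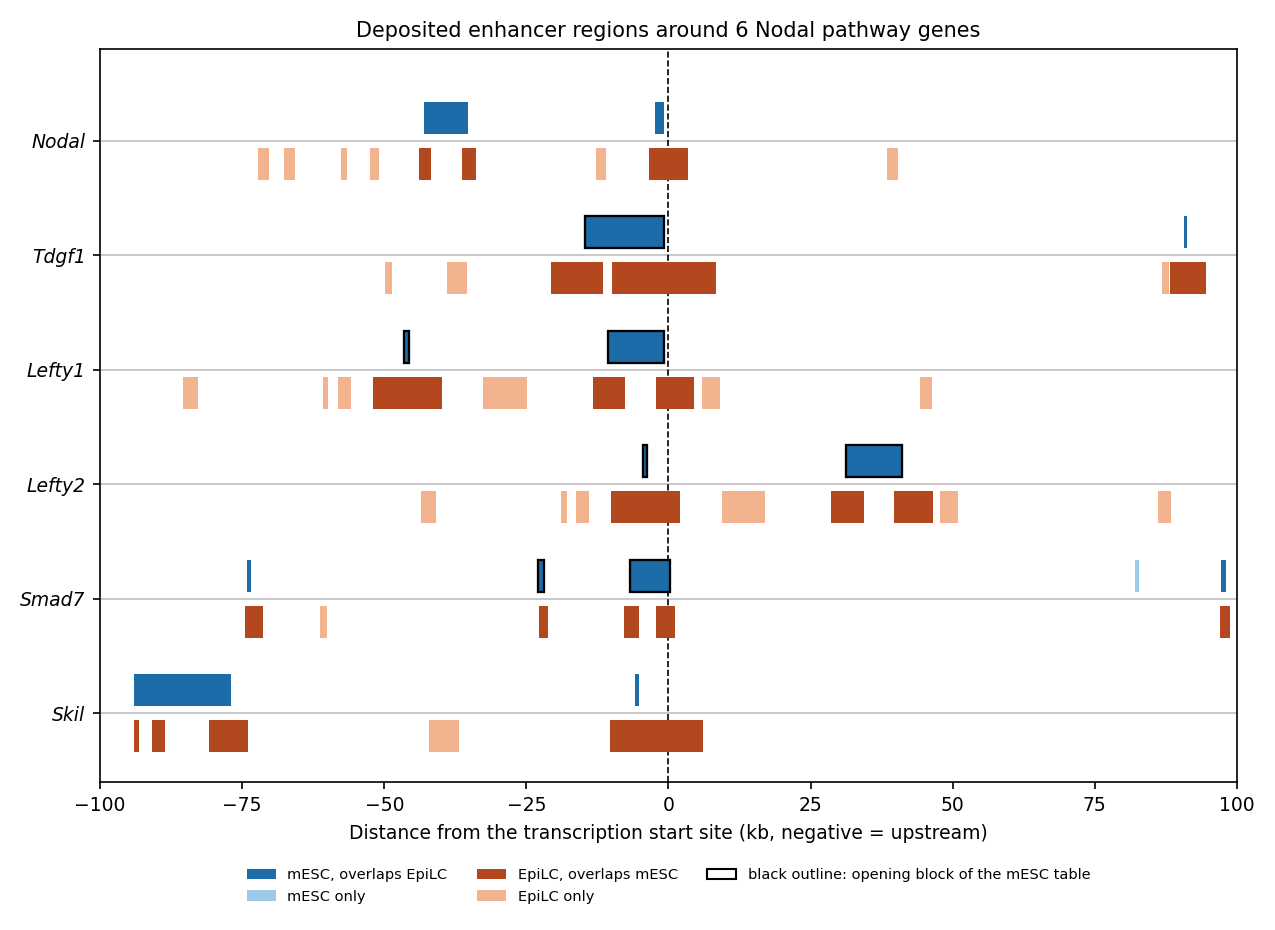
Enhancer regions of the mESC list (blue, above each line) and the EpiLC list (red, below) by distance from the TSS in kb (x axis, negative is upstream), drawn to scale for each of the 6 genes. Dark bars overlap the other list, pale bars do not, and a black outline marks the first 231 rows of the mESC list; the 6 dark red bars over 0 are the EpiLC regions that cover the TSS.

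At Nodal, the ligand of the pathway (chr10:61417972-61425338, plus strand), the EpiLC list added regions on both sides of 2 mESC regions. The proximal mESC region (chr10:61415545-61417254, 1710 bp) was centred 1573 bp upstream of the TSS and lay wholly inside the 7000 bp EpiLC region (chr10:61414502-61421501), of which it made up 24.4%. That EpiLC region ran from 3470 bp upstream to 3529 bp downstream of the TSS and so took in part of the first intron. The other mESC region, of 7681 bp, was centred 39.2 kb upstream in an intron of Pald1 and touched 2 EpiLC regions, of 1975 and 2525 bp. The 2525 bp region lay at the Pald1 promoter, so its link to Nodal rests on distance alone. The 6 EpiLC-only regions were 1075 to 2050 bp long, against a median of 1625 bp for EpiLC-only regions over the list. The nearest was centred 11.8 kb upstream, 4 lay farther upstream within Pald1 and 1 lay 39.4 kb downstream, nearer to Eif4ebp2. Of the 9 EpiLC regions 2 had Nodal as their nearest TSS, and 7 were centred upstream.

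At Tdgf1, which encodes the coreceptor Cripto (chr9:110939608-110946158, minus strand), the longest EpiLC region of the set covered the whole gene. It measured 18400 bp (chr9:110937752-110956151), and 0.223% of the list was as long or longer. The mESC region beside it, 13949 bp long (chr9:110946919-110960867), began 761 bp upstream of the TSS and extended away from the gene. The regions shared 9233 bp, which was 66.2% of the mESC and 50.2% of the EpiLC region, so this was 1 of the 2 places where the lists each covered more than 50% of the other. The mESC region went on to share 3191 bp with a second EpiLC region of 9200 bp. It was centred inside Lrrc2, a neighbour named here after its position was seen, 2348 bp from the Lrrc2 TSS, which lies 5387 bp from that of Tdgf1. The far mESC region, 540 bp long and 91.0 kb downstream, lay inside a 6425 bp EpiLC region in Prss46. The 3 EpiLC-only regions were 1150 to 3425 bp long, the nearest 37.2 kb upstream.

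The antagonist genes Lefty1 (chr1:180935022-180938401) and Lefty2 (chr1:180893108-180899107) stand on the plus strand with TSSs 41.9 kb apart. Their windows held the same 2 mESC and the same 9 EpiLC regions, which are counted once in the totals and are not independent between the genes. The mESC region nearest Lefty2, 870 bp long (chr1:180888554-180889423), was centred 4120 bp upstream of it and lay inside the 12100 bp EpiLC region that covers the Lefty2 TSS, filling 7.19% of it. The mESC region nearest Lefty1, 9786 bp long (chr1:180924391-180934176), was centred 5739 bp upstream of that gene and bridged 2 EpiLC regions. It shared 3061 bp with an EpiLC region of 5725 bp and 1350 bp with the region of 6775 bp over the Lefty1 TSS. The nearest EpiLC-only region to Lefty1 was centred 7479 bp downstream at the Tmem63a promoter. The TSS of H3f3a, which encodes the H3.3 histone removed in some of the study's cells, lies 79.5 kb from that of Lefty2. Of its own 7 EpiLC and 1 mESC regions, 5 and 1 were among those of the Lefty2 window; the gene was named after this was seen.

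Smad7 encodes an inhibitory SMAD that blocks the activated receptors (chr18:75367365-75395934, plus strand), and most of its regions overlapped between the lists. Of 5 mESC regions 4 overlapped an EpiLC region, and of 6 EpiLC regions 5 overlapped an mESC region, a count that 0.445% of intervals reach. The 6945 bp mESC region (chr18:75360679-75367623) ran from 6686 bp upstream to 258 bp downstream of the TSS. In the EpiLC list 2 separate regions, of 2775 and 3475 bp, shared 1573 and 2497 bp with its ends, 58.6% of it, and left the stretch between them uncovered. A 1047 bp mESC region 22.3 kb upstream shared 1022 bp with a 1600 bp EpiLC region, the other place where each region covered more than 50% of its partner. The EpiLC-only region was 1300 bp long and 60.7 kb upstream. Smad7 had the fewest EpiLC bases of the 6 genes, 14.2 kb, with the shortest region over its TSS.

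Skil encodes SnoN, a corepressor of SMAD-driven transcription (chr3:31095058-31122923, plus strand), and its regions were all centred upstream. The nearest mESC region, 767 bp long (chr3:31089093-31089859), was centred 5582 bp upstream and lay inside the 16350 bp EpiLC region over the TSS, of which it made up 4.69%. The EpiLC region ran from 10256 bp upstream to 6093 bp downstream of the TSS. The other mESC region was the longest near the 6 genes, 17125 bp, centred 85.5 kb upstream in Prkci. The EpiLC list showed 3 regions of 875 to 6950 bp within or across it. The EpiLC-only region, 5275 bp long, was centred 39.4 kb upstream. By bases, Skil had the most mESC coverage of the 6 genes (17.9 kb) and Tdgf1 and the Lefty windows the most EpiLC coverage (39.8 and 43.7 kb), against 9.39 kb of mESC and 21.9 kb of EpiLC regions at Nodal.

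The first 231 rows of the mESC list form a block of their own, after which the chromosome order starts again. What the block stands for is not given in the sources used here. Its regions had a median length of 8667 bp, and 223 of them (96.5%) overlapped an EpiLC region. Of the 13 mESC regions near the 6 genes 5 were in it (2.63% of the list), namely both Lefty regions, the 13949 bp region at Tdgf1 and the 2 Smad7 regions nearest its TSS. Tdgf1, Lefty1, Lefty2 and Smad7 thus had at least 1 such region within 100 kb, as 3.19% of intervals did, and Nodal and Skil had none, although 1 Skil region measured 17125 bp and 1 Nodal region 7681 bp. Without the block, 8 mESC regions remained, of which 7 overlapped. Of the 35 EpiLC regions 10 then overlapped, against 18 with the block kept, so the EpiLC overlap near the 6 genes rested in part on the block. The shares over the lists were 42.9% (mESC) and 25.9% (EpiLC) with the block kept and were not taken without it.

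Among the 6 genes, FOXH1 matches were most frequent at the Lefty genes. Searched on both strands, AATCCACA occurred 10 times within 100 kb of each Lefty TSS, with 6 of the matches in an enhancer region at both, since the windows share their regions. In the other windows there were 5 matches at Nodal with 2 in a region, 4 at Tdgf1 with 1, 6 at Smad7 with 1 and 5 at Skil with none. Matches were not counted in the windows of other genes, so these counts have no background. The 2 Lefty windows overlap, and their counts are not independent. Anywhere in the region, a match was found in 3 of 13 mESC regions (7.12% of the list) and 6 of 35 EpiLC regions (9.43%), in regions that are longer than usual. The matches per kb were 0.0959 against 0.0476 over the mESC list and 0.0595 against 0.0437 over the EpiLC list. Of the 6 matches in mESC regions 5 lay at the Lefty genes, as did 5 of the 9 in EpiLC regions. The higher density thus rested largely on that locus, and the density without it was not taken. A match describes letters and does not show that FOXH1 binds there.

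Among the Lefty matches were 2 close pairs, the ones printed above, and the other matches stood alone. Upstream of Lefty2 the paired matches started 4215 and 4132 bp before the TSS, 83 bp apart and both on the plus strand. They lay inside the 870 bp mESC and the 12100 bp EpiLC region. Upstream of Lefty1 they started 10208 and 10145 bp before the TSS, 63 bp apart, both on the minus strand, inside the 9786 bp mESC and the 5725 bp EpiLC region. Such pairs, starting within 100 bp of each other, were held by 7 mESC regions (0.0796%), of which 2 were these, and by 11 EpiLC regions (0.0664%), of which 2 were these. The 100 bp limit was chosen after the pairs were seen, so these counts are a description. With the Lefty1 window reverse complemented, a local alignment of the 300 bp windows ran over 152 columns with 103 identical (67.8%) and a score of 52. On the same strand it ran over 14 columns with a score of 23. The windows were centred on these pairs, which lie on opposite strands, so inverting 1 window sets the chosen letters on the same strand. No other windows were aligned, so whether these are alike beyond the chosen letters was not tested. The inverted alignment covered positions 29 to 169 of the Lefty2 window, which leaves out its second match. Neither window overlapped an annotated exon.

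**Figure D4:**
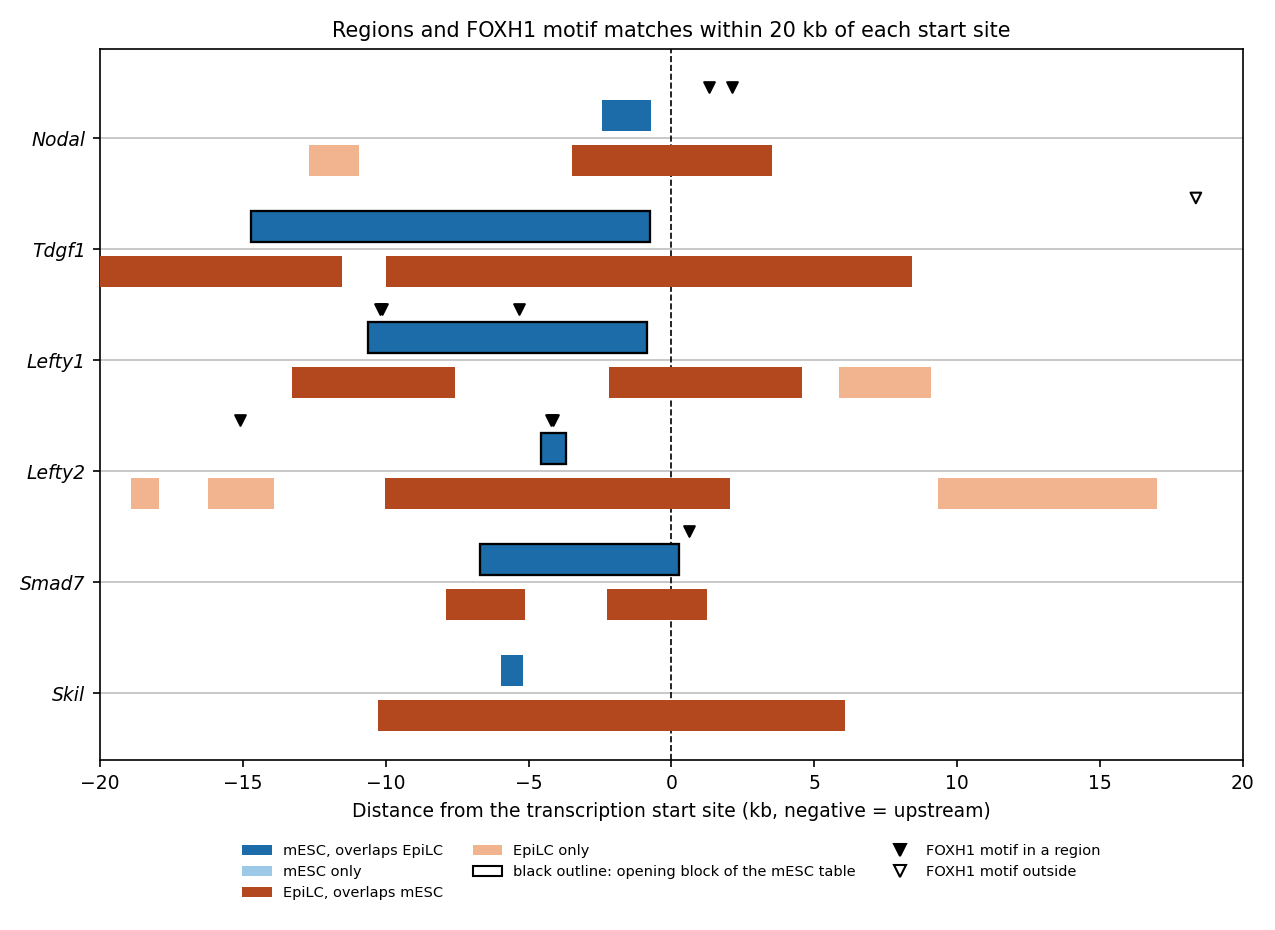
Regions and FOXH1 letter matches (AATCCACA, both strands) within 20 kb of each TSS (x axis, kb, negative is upstream); blue bars are mESC and red bars EpiLC regions, with shading and outline by overlap and opening block, and bars are cut at the frame. Filled triangles are matches inside a region and the open one at Tdgf1 is outside; the pairs upstream of Lefty2 and Lefty1 (83 and 63 bp apart) each appear as nearly 1 triangle, and the Nodal matches sit downstream of the TSS, where the red bar continues and the blue bar has ended.

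At Nodal the 2 matches in the first intron started 1327 and 2121 bp after the TSS, 794 bp apart and both on the plus strand. They lay in the part of the 7000 bp EpiLC region that the mESC region does not reach. The Tdgf1 match was 91.0 kb downstream of the TSS, in the 540 bp mESC and the 6425 bp EpiLC region. The Smad7 match started 631 bp after the TSS in exon 1, in the EpiLC region only. The third Lefty1 match, 5330 bp upstream of the gene, was in the 9786 bp mESC region only, and the match 15089 bp upstream of Lefty2 was in a 2300 bp EpiLC-only region. The palindrome GTCTAGAC, to which SMAD proteins can bind, was found inside regions 3789 bp upstream of Lefty2, 11551 bp upstream of Lefty1 and 189 bp upstream of the Smad7 TSS. No region near Nodal, Tdgf1 or Skil held these letters. Counted over whole regions, the palindrome was in 2 of 13 mESC regions (1.74% of the list) and 3 of 35 EpiLC regions (2.03%). Its matches per kb were 0.032 against 0.0102 over the mESC list and 0.0198 against 0.00883 over the EpiLC list. Regions near these genes are longer than usual, and the densities rest on only 2 and 3 matches.

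The central 300 bp of each region allow a comparison at equal length. FOXH1 letters were found in 2 of 13 mESC cores (1.64% of the list), those of the 870 bp Lefty region and the 540 bp Tdgf1 region, and in 1 of 35 EpiLC cores (1.64%). The SMAD box CAGAC was in 8 mESC cores (51.8%) and 23 EpiLC cores (56.6%), both near what the lists give, and the palindrome was in none (0.354% and 0.286%). Of pluripotency-factor motifs, the octamer was in 1 mESC core (8.78%) and no EpiLC core (3.37%). That core was of the 540 bp Tdgf1 region, while the octamer printed above lay outside the core of the 13949 bp region. SOX letters CATTGTT were in 1 mESC core (11.0%) and 3 EpiLC cores (4.95%). ESRRB letters TCAAGGTCA were in 1 (2.65%) and 0 (1.09%), and STAT letters TTCNNNGAA in 2 (10.4%) and 2 (8.6%). TCF/LEF letters ATCAAAG were in no mESC core (6.62%) and in 4 EpiLC cores (4.27%), 3 of them in the Nodal window. The nearest TSSs of these 3 regions were those of Nodal, Pald1 and Eif4ebp2. OTX letters were in 3 (13.2%) and 3 (12.0%), among them the Skil core printed above. With 13 and 35 regions, a difference of 1 or 2 cores from the list's share cannot be read as more than that.

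By position, 6 of the 13 mESC regions were centred in introns, 6 between genes and 1 at a promoter, meaning within 1 kb of any GENCODE transcript start. Over the list the shares were 45.5%, 42.4% and 8.92%. Of the 35 EpiLC regions 11 were centred at a promoter, 12 in introns, 10 between genes and 2 in noncoding exons, against 25.7%, 34.5%, 36.9% and 2.22%. Of the 11 at promoters 5 were EpiLC-only. The median GC content was 48.9% against 45.0% over the list in mESC regions and 48.8% against 47.7% in EpiLC regions. The median ratio of observed to expected CpG was 0.242 against 0.188 (mESC) and 0.25 against 0.244 (EpiLC). Repeats made up a median of 20.6% against 17.6% (mESC) and 24.9% against 19.7% (EpiLC). Only 6 of the mESC and 12 of the EpiLC regions had one of the 6 genes as their nearest TSS, so most of the regions within 100 kb lay closer to another gene.

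Of 26 other genes of the pathway, 15 (57.7%) had an mESC enhancer within 100 kb, near the 55.3% of all intervals, and 23 (88.5%) had an EpiLC enhancer, against 74.0%. The medians were 1 mESC and 3 EpiLC enhancers, against 1 and 2 over all intervals. An mESC enhancer that overlapped an EpiLC one was found at 11 of them (31.5% of intervals), an EpiLC-only one at 23 (68.8%) and an mESC-only one at 9 (36.7%). At least 5 EpiLC enhancers were found at 7 (16.5%) and a region of the opening block at 3 (3.19%). The TSS lay in an EpiLC region at 6 of 26 (14.0% of intervals) and in an mESC region at 0 (1.16%). The 4 genes with most regions over both lists were Pmepa1, Tgif1, Ppm1a and Gdf3. Pmepa1, which encodes a feedback inhibitor that sequesters receptor-regulated SMADs, had 2 mESC and 12 EpiLC regions, and Tgif1, which encodes a SMAD corepressor, had 4 and 9. Ppm1a, which encodes a phosphatase of SMADs, had 5 and 7, and the ligand gene Gdf3 had 5 and 5. The windows of Pmepa1, Tgif1, Ppm1a and Gdf3 held 1, 0, 1 and 5 other TSSs. Of their mESC regions, 3 at Tgif1 and 2 at Gdf3 were in the opening block. The receptor genes Acvr1c and Acvr2a and the ubiquitin ligase gene Smurf1 had none in either list. The transducers Smad2, Smad3, Smad4 and Foxh1, singled out after their values were seen, had 0 mESC regions and 1, 3, 2 and 7 EpiLC regions. Their windows held 1, 0, 1 and 14 other TSSs, against a median of 4 over all intervals.

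**Figure D5:**
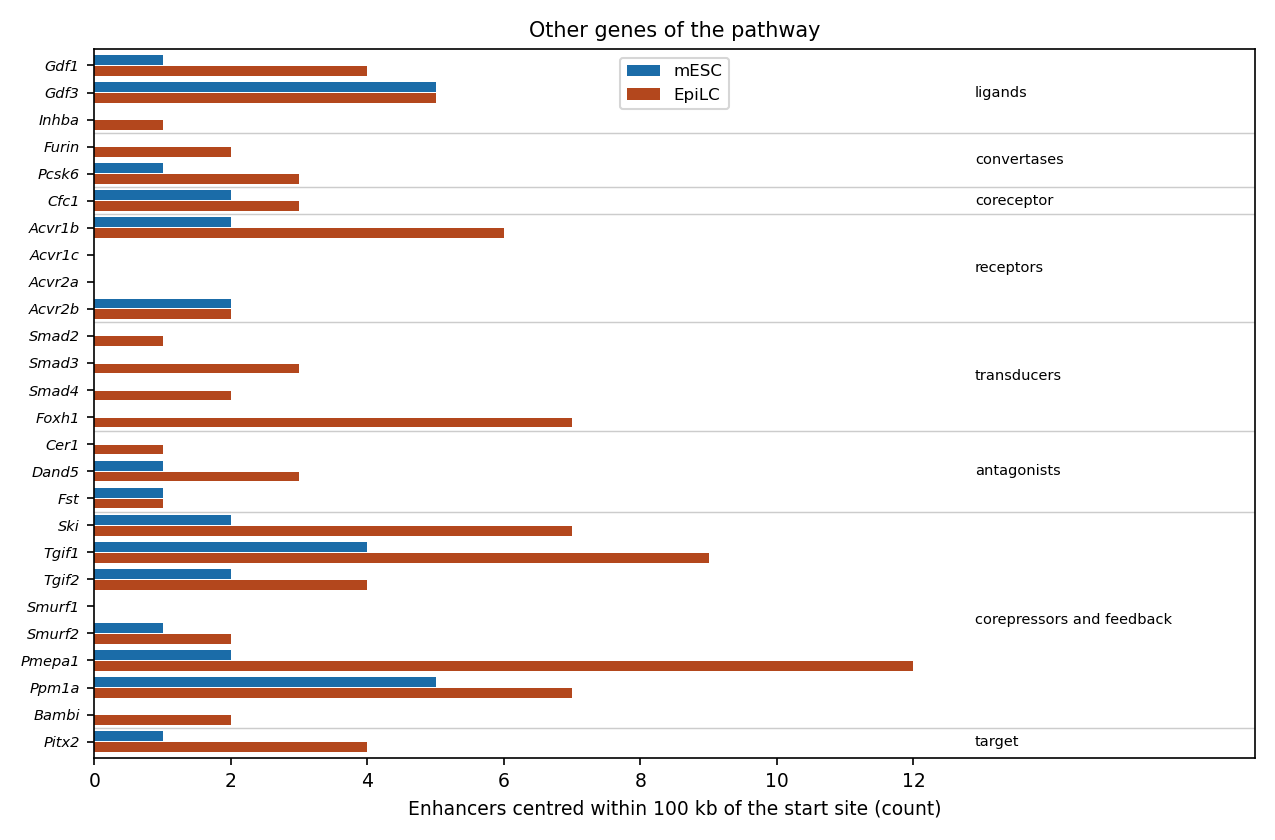
Number of mESC (blue) and EpiLC (red) enhancers centred within 100 kb of the TSS (x axis) for 26 other genes of the pathway, grouped by role (y axis). Pmepa1 has the longest red bar at 12, Gdf3 and Ppm1a the longest blue bars at 5, and Acvr1c, Acvr2a and Smurf1 have no bar.

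Other genes had the same or nearly the same counts. Likeness was measured as the Euclidean distance between 8 counts per gene (each list, overlapping or not, within 20 kb and from 20 to 100 kb), over 23704 gene names more than 200 kb away. Vdac1 had the same 8 counts as Tdgf1, a distance of 0, and 4930447K03Rik was at 1.0. The nearest to both Nodal and Lefty1 were 4930556N13Rik and Adipor2, among 10 and 7 genes tied at 1.0. For Lefty2 they were Gstt2 and H2ac7, among 8 tied, for Smad7 Akap12 and Klhdc8a, the 2 at that distance, and for Skil B3gnt2 and Bst1, among 12 tied. The outermost region inside the 100 kb limit was a Smad7 EpiLC region at 98.0 kb and the nearest outside it a Nodal mESC region at 102 kb.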

How the data were processed

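The study's libraries were made by chromatin immunoprecipitation from mESCs and EpiLCs. For the reads, Bowtie2 2.3.4.1, Trimmomatic 0.38, the builds dm6 and mm10, and bedtools 2.29.2 appear in the submitters' processing notes, without settings. The deposited tables give positions (chromosome, start, end, strand) and 0 columns with a value per library. Per the series' design text, the authors took the enhancer lists from earlier publications, defined the EpiLC list by H3K27ac, H3K4me1 and p300 peaks, and lifted both lists over to mm10. The gene table's start counts from 0. The enhancer starts were taken to do so too, which leaves them uncertain by 1 bp.

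Of 24402 gene rows, 115 duplicates and 24 rows on scaffolds or past a chromosome end were left out. Names came from exact matches to RefSeq (12030 rows) or GENCODE M21 (1405 genes, 1214 transcripts) or, in 9149 rows, from the annotated interval that shares 0.8 or more of the joint length. All 6 genes matched RefSeq exactly except Smad7, which was named by joint length. A region belonged to a gene if its centre lay within 100 kb of the TSS, and regions overlapped if they shared at least 1 bp. Motifs were searched in the mm10 genome (GRCm38.p6), and sequences were read from it. For the central 300 bp, 48 mESC and 127 EpiLC regions shorter than that were left out. Python 3.11.15, pandas 2.3.3, numpy 2.4.6, pysam 0.24.0 and samtools 1.23.1 were used, and overlap counts and motif search were tested on simulated data against bedtools 2.31.1. The 6 genes, the wider list and the motifs were chosen with earlier results of these data known. Named were the 6 genes, the 4 other pathway genes with most enhancers and up to 4 with none, the 2 genes most alike in counts, and the nearest and longest regions of each gene. The region this rule names as the nearest EpiLC-only one at Lefty2 is counted but not reported here.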

Additional observations from a re-analysis of the deposited data

How the results depend on the processing

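The counts of 13 mESC and 35 EpiLC regions, 12 and 18 of them overlapping, were recomputed under other settings. A window of 50 kb gave 8 mESC and 23 EpiLC regions, and one of 20 kb gave 6 and 14, with 6 and 9 overlapping. Keeping regions whose nearest TSS is one of the 6 genes gave 6 and 12, with 6 and 9 overlapping. Without the opening block 8 mESC regions stayed, 7 of them overlapping, as did 10 EpiLC regions. Overlap of at least 50% of both regions left 2 and 2, and an equal width of 500 bp left 4 and 4. In the wider list a 20 kb window gave 7 genes with an mESC and 14 with an EpiLC enhancer. Shares over all intervals were taken for the 100 kb window only, so the counts in other windows have no background. FOXH1 letters anywhere in the region, not only its centre, were in 6 EpiLC regions. Of 50 such values 20 moved by more than 1.5 times and 30 did not, among the latter the totals for a 200 kb window, distance to the nearest edge, every GENCODE transcript start, starts counted from 1 and a permitted gap of 1 kb. Of 108 counts for single genes, 36 moved, 34 of them lower. No paired analysis was possible because the tables have no column for any library.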
